A study of Mus musculus with 6 samples.

Results

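The B cell receptor signalling genes described here are 35 genes listed by symbol as parts of this pathway, from the receptor to its phosphatases, and all 35 were found by symbol among the 41669 rows of a deposited table of estimated counts. They were read in all 6 libraries of the series, as CPM, the count scaled to 1000000 per column. The mice were NZB/W F1, the hybrid of the NZB and NZW strains that develops a lupus-like disease, and all were at its late stage. There were 3 females and 3 males. Their splenic B cells were positively selected over a column, and before RNA was taken the cultures of both sexes received CpG for 24 h. CpG is DNA that Toll-like receptor 9 senses. The 6 libraries include no unstimulated culture, no healthy strain and no early stage, so every value describes activated cells of sick animals, and the only contrast is female against male. The labels give neither the ages of the mice nor a purity of the selected cells.

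The B cell receptor is a membrane immunoglobulin bound to a pair of signalling chains, CD79A and CD79B. When antigen binds, kinases of the Src family and then SYK phosphorylate these chains and the adaptor BLNK, on which BTK activates the phospholipase PLCG2. From there the signal runs through phosphoinositide 3-kinase (PI3K), through calcium to the NFAT factors, through RAS, and through protein kinase C and a complex that holds BCL10 and MALT1 to NF-kB. Some phosphatases and ubiquitin ligases brake it, and loss of several of these brakes causes autoimmunity in mice. CpG is not a ligand of this receptor, and the labels name no antigen or anti-immunoglobulin in the cultures.

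The column totals were 24089561, 29407229 and 35659883 estimated counts in female replicates 1 to 3, and 27402953 to 33205284 in the males. Female replicate 3 stood apart: its TMM scaling factor was 0.816, against 0.993 to 1.07 in the other 5 libraries. The 9 B cell markers found of 10 listed summed to 2450 to 2660 CPM in females and 2470 to 2650 CPM in males, and the B cell genes Ms4a1 and Pax5 had at least 1420 and 497 CPM in every library. Of the other marker lists, T cell genes summed to 5.27 to 12.5 CPM in females and 6.91 to 8.38 CPM in males. Monocyte and macrophage genes, 11 of 12 found, summed to 5.40 to 11.5 CPM in females and 2.21 to 3.12 CPM in males, without overlap. Natural killer genes summed to 2.51 to 7.59 CPM in females and 1.80 to 3.87 CPM in males, with Ncr1, Prf1 and Gzmb at 0 in all 6. Most of each natural killer sum was Klrb1c, at 2.10 to 7.39 CPM in females and 1.61 to 3.81 CPM in males. Dendritic cell genes summed to 5.20 to 11.9 CPM in females and 7.13 to 13.3 CPM in males. Erythroid genes summed to 0.718 to 2.38 CPM in females and 0.0495 to 0.495 CPM in males, also without overlap. Plasma cell genes, 6 of 7 found, summed to 279 to 488 CPM in females and 275 to 318 CPM in males. Of these, Igj had 37.7 to 48.4 CPM in females and 17.0 to 18.3 CPM in males. Prdm1 had 22.1 to 61.5 CPM in females and 11.7 to 12.9 CPM in males. Both were without overlap, and both were picked after their values were seen. The others found overlapped between the sexes. Xbp1 had 72.9 to 124 CPM in females and 104 to 122 CPM in males, and Irf4 123 to 225 and 109 to 139 CPM. Mzb1 had 9.89 to 45.7 CPM in females and 25.1 to 37.5 CPM in males, and Sdc1 1.59 to 3.22 and 2.02 to 2.92 CPM. Several of the pathway's genes, among them Syk, Lyn and Ptpn6, are also used by myeloid cells, and the part of these other cells in the values below was not tested. In such bulk RNA, fewer cells of a type and less RNA per cell cannot be told apart.

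Of the 35 genes, 30 have an entry in the RefSeq promoter table for GRCm38.p6, from 250 bases before to 50 after each start of transcription. No entry was found for Cd79b, Lyn, Blk, Nfatc1 and Malt1. Transcription of many B cell and myeloid genes depends on ETS family factors such as PU.1. The letters counted were GGAAGT, which holds their binding core, or, on the other strand, ACTTCC. These letters stood in at least 1 window of 18 of the 30 genes (60.0%), against 26.5% of the 27025 genes in the table, or in 48.8% of the 41 windows of these genes against 23.8% of all windows. A match is a description of the letters and not a bound site. The letters are those of the GRCm38.p6 reference, and the promoter sequences of the NZB/W F1 mice were not examined. The comparison was with all 27025 genes, whether expressed in these cells or not. The higher share is thus not shown to be particular to this pathway. Promoters of 3 members are shown, 5' to 3' along the gene with the counted letters in capitals. They are Cd79a and Ptpn6, whose values differed widely between the libraries, and Bank1, whose values hardly differed. The Cd79a window is chr7:24897247-24897546 on the plus strand, the Ptpn6 window chr6:124738660-124738959 on the minus strand, and the Bank1 window chr3:136326017-136326316 on the minus strand.
Cd79a: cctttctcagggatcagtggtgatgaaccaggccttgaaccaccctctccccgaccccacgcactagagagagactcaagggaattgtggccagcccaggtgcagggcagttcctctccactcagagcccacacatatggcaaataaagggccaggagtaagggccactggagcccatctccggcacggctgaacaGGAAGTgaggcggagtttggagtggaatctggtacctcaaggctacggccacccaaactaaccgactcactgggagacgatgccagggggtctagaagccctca
Ptpn6: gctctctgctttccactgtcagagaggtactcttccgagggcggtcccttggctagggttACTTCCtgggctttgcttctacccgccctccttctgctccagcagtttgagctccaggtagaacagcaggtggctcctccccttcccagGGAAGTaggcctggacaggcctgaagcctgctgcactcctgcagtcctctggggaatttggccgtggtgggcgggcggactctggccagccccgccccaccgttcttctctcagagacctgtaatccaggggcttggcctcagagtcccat
Bank1: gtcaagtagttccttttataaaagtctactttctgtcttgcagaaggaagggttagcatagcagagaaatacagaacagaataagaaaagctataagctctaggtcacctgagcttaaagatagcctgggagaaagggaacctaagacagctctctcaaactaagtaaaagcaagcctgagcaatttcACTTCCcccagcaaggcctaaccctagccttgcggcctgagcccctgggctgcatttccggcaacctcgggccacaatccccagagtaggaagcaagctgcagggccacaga

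The Cd79a window held 1 match, the Ptpn6 window 2 and the Bank1 window 1. GC content was 58.3% in the Cd79a window, 61.7% in that of Ptpn6 and 48.7% in that of Bank1. The counted letters were not confined to the genes that varied. They stood in 7 of 11 promoters of the members with the most GC-rich transcripts, 5 of 9 of the middle group and 6 of 10 of the most GC-poor.

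Levels of different genes were compared per kilobase of the longest coding transcript in GENCODE M21, as mean CPM per kilobase over the 6 libraries. Ptprc, the gene of the receptor phosphatase CD45, was highest of the 35 at 266 CPM per kilobase, followed by the adaptor gene Bank1 at 124 and the RAS exchange factor gene Rasgrp3 at 78.2. Orai1 was lowest at 0.559 CPM per kilobase, below Nfatc2 at 0.651 and Blk at 1.73. The signalling chains of the receptor were not among the high genes: Cd79b had 23.6 and Cd79a 11.6 CPM per kilobase, above 79.6% and 67.8% of all tested genes. Across the 35 genes, which are not independent replicates, the level per kilobase had a Spearman correlation of -0.722 with the GC content of the transcript, against -0.342 over 11610 tested genes. The part of GC content in these levels was not tested. Within the receptor, PI3K and adaptor steps the highest gene changed when the median coding transcript length was used instead: it was then Cd81, Pik3r1 and Rasgrp3.

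**Figure D1:**
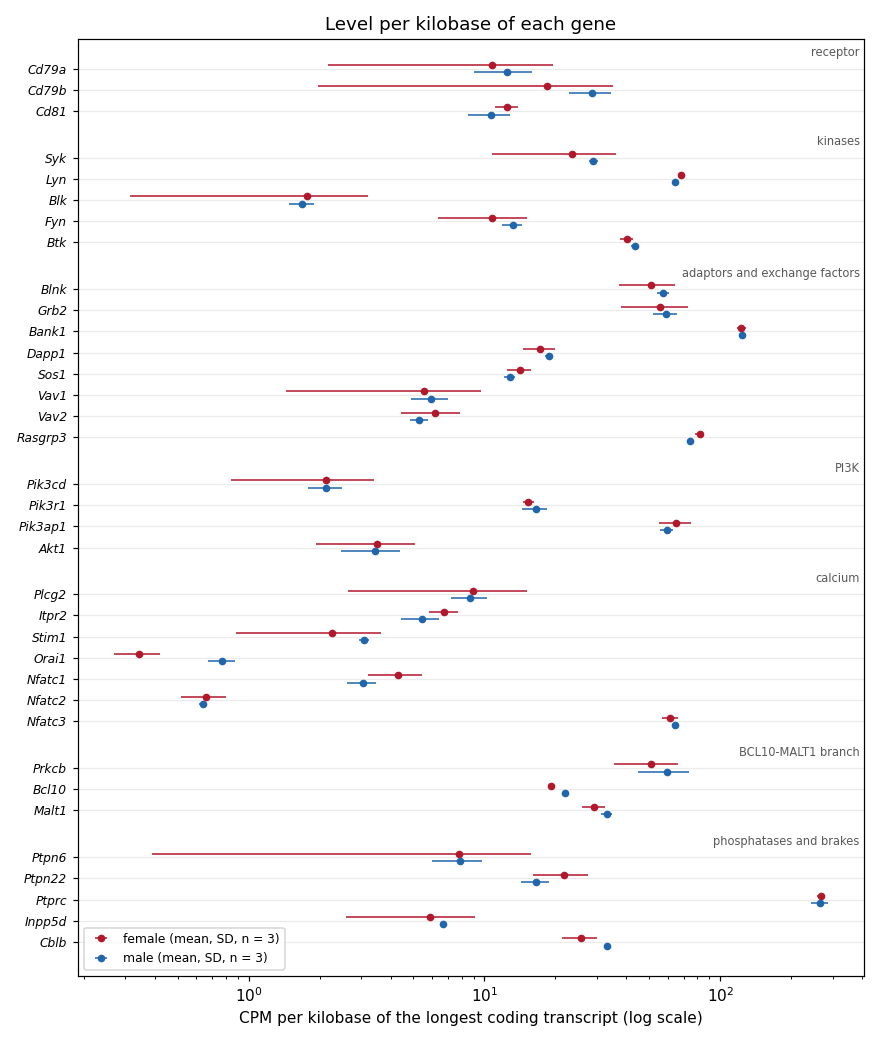
Mean CPM per kilobase (log axis) of the 35 genes by step of the pathway, with females (red) above males (blue); bars are the SD over 3 libraries, clipped at the lower end where they would pass 0. Ptprc at 266 and Orai1 at 0.559 CPM per kilobase over all 6 libraries mark the ends, and the red bars are long for Cd79a, Cd79b, Blk and Ptpn6.

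At the receptor, Cd79a and Cd79b varied more between females than between the sexes. Cd79b (chromosome 11: 106311341 to 106314762, GRCm38) had 51.9, 22.3 and 5.20 CPM in female replicates 1 to 3, and 47.8, 31.8 and 43.4 CPM in male replicates 1 to 3. Cd79a (chromosome 7: 24897381 to 24902197) had 29.4, 13.3 and 4.61 CPM in the females and 22.8, 12.9 and 18.8 CPM in the males. For both chains female replicate 1 was the highest library and female replicate 3 the lowest, and the males lay between. The log2 fold change, female over male, was -0.60 ± 0.60 (SE) for Cd79b and -0.16 ± 0.52 for Cd79a. Without female replicate 1 that of Cd79b was -1.44 and without female replicate 3 it was -0.15. Within a library the CPM of Cd79b exceeded that of Cd79a by a factor of 1.76, 1.68 and 1.13 in females and 2.10, 2.47 and 2.31 in males. This ratio, singled out after its values were seen, did not overlap between the sexes. The same held for 104 of the 595 ratios between 2 of the 35 genes (17.5%). Cd81, a tetraspanin of the B cell coreceptor, had 19.3, 21.1 and 17.0 CPM in females and 19.4, 12.9 and 16.8 CPM in males, and so did not share the low value of female replicate 3.

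Among the kinases, Lyn and Btk were steady while Syk, Fyn and Blk were far lower in female replicate 3 than in the other 5 libraries. Lyn, the main Src family kinase of B cells (chromosome 4: 3678115 to 3813122), had 234, 232 and 241 CPM in females and 227, 214 and 230 CPM in males. The female values all lay above the male ones, by little, and the log2 fold change was 0.23 ± 0.16. The sexes overlapped with TMM scaling but not with RLE or upper-quartile scaling, and without female replicate 3 the log2 fold change was 0.079. Blk, another Src family kinase, had 7.55, 3.93 and 0.820 CPM in females and 4.38, 3.41 and 4.02 CPM in males. Female replicate 3 held 29.2 estimated counts of Blk. Per kilobase, Lyn made up 79.3%, 83.2% and 91.7% of the sum of Lyn, Fyn and Blk in females, and 81.0%, 79.7% and 83.2% in males. The kinase gene Syk had 197, 119 and 61.2 CPM in females and 163, 150 and 154 CPM in males, so that the females lay on both sides of the males. Fyn, which is also used by T cells, had 51.5, 42.0 and 21.1 CPM in females and 47.9, 51.0 and 41.7 CPM in males. Btk, the X-linked gene whose loss causes antibody deficiency, had 108, 102 and 95.9 CPM in females and 113, 106 and 114 CPM in males. Its log2 fold change was 0.02 ± 0.13.

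Bank1 and Rasgrp3 led the adaptors and exchange factors in level per kilobase, and both were even across the libraries. Bank1, a scaffold that binds LYN (chromosome 3: 136053363 to 136326066), had 416, 408 and 381 CPM in females and 401, 405 and 412 CPM in males, with the smallest coefficient of variation of all 35 genes (3.06%). Rasgrp3, which loads RAS with GTP (chromosome 17: 75435896 to 75529054), had 383, 405 and 371 CPM in females and 344, 357 and 354 CPM in males. Every female value exceeded every male one, on this scale and with TMM scaling. The log2 fold change was 0.28 ± 0.14 (adjusted p = 0.999, edgeR), and 0.19 without female replicate 3. Blnk, the adaptor that joins SYK to BTK and PLCG2, had 131, 113 and 75.4 CPM in females and 128, 116 and 117 CPM in males. The exchange factor gene Vav1 had 29.8, 13.8 and 5.81 CPM in females and 19.7, 13.9 and 19.0 CPM in males. Its relative Vav2 (chromosome 2: 27262104 to 27427033) had 42.2, 29.4 and 24.8 CPM in females and 30.1, 25.2 and 27.4 CPM in males. The 2 Vav genes thus differed in female replicate 3, where Vav1 made up 29.2% of their sum per kilobase, against 45.3 to 55.5% in the other 5 libraries. Grb2 and Sos1, which link receptors to RAS, and Dapp1, which binds PI3K products, had log2 fold changes of 0.02 ± 0.19, 0.30 ± 0.19 and 0.00058 ± 0.13. That of Sos1 was 0.46 without female replicate 1 and 0.10 without female replicate 3.

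In the PI3K step, the genes differed in level by more than the sexes did. Pik3ap1, the adaptor that brings PI3K to the receptor complex (chromosome 19: 41272377 to 41385102), had 280, 342 and 253 CPM in females and 284, 264 and 250 CPM in males. Pik3r1, a regulatory subunit, had 110, 103 and 115 CPM in females and 113, 106 and 133 CPM in males. Pik3cd, the catalytic subunit of leukocytes (chromosome 4: 149649168 to 149702571), had 16.8, 10.4 and 4.17 CPM in females and 12.2, 8.80 and 10.5 CPM in males. Akt1, a kinase activated by PI3K products, had 14.2, 8.26 and 5.89 CPM in females and 11.8, 6.59 and 9.34 CPM in males. All 4 log2 fold changes were positive with TMM factors, between 0.05 and 0.27, but with library totals only those of Pik3cd and Pik3r1 were negative. The smallest of their standard errors was 0.15.

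The calcium step held both the gene with the largest log2 fold change between the sexes, Orai1, and the NFAT family, in which Nfatc3 far exceeded the others. Orai1 encodes the pore of the calcium channel that opens when stores empty (chromosome 5: 123015074 to 123030456). It had 0.743, 0.712 and 0.480 CPM in females and 1.40, 1.67 and 1.29 CPM in males. The highest female value was below the lowest male one, on few reads: 17.9, 20.9 and 17.1 estimated counts in females and 44.1, 45.7 and 42.9 in males. The log2 fold change was -1.05 ± 0.37, with an adjusted p of 0.999 (edgeR). Orai1 is also among the most GC-rich of the 35 transcripts, at 58.6%, and female replicate 3 was its lowest library. Without that library the log2 fold change was -0.97.

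Stim1, the store sensor that opens ORAI1, had 15.9, 9.88 and 3.86 CPM in females and 14.1, 12.8 and 13.7 CPM in males. Plcg2, the phospholipase that starts the calcium signal, had 66.6, 36.0 and 12.7 CPM in females and 41.1, 30.0 and 41.4 CPM in males. Both had their lowest value in female replicate 3. Itpr2, a store release channel (chromosome 6: 146108299 to 146502223), had 89.3, 80.0 and 67.3 CPM in females and 65.9, 50.7 and 73.2 CPM in males. Only female replicate 3 lay within the male range, and the log2 fold change was 0.45 ± 0.17 (edgeR adjusted p = 0.999).

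Nfatc3 (chromosome 8: 106058840 to 106130537) was the abundant NFAT factor, with 396, 366 and 339 CPM in females and 372, 391 and 392 CPM in males. Per kilobase it made up 93.1%, 93.9% and 90.3% of the sum of the 3 NFAT genes in females, and 94.1%, 95.3% and 94.3% in males. Nfatc1, which B cells induce on activation, had 19.7, 16.0 and 26.4 CPM in females and 15.6, 12.2 and 16.0 CPM in males. It was highest in female replicate 3, the library in which most of the 35 genes were lowest. The log2 fold change of Nfatc1 was 0.68 ± 0.30, and 0.30 without that library. Nfatc2 stayed between 3.73 and 5.60 CPM in females and 4.19 and 4.52 CPM in males.

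In the branch of BCL10 and MALT1, all 3 genes had small negative log2 fold changes with TMM factors, from -0.11 to -0.01, and that of Malt1 was positive with RLE factors. Bcl10 (chromosome 3: 145922804 to 145934356) had 38.3, 37.5 and 36.2 CPM in females and 42.7, 42.6 and 43.3 CPM in males. The sexes did not overlap on this scale, but they did with TMM scaling, and the log2 fold change was -0.06 ± 0.15. Malt1, the protease of the complex, had 142, 149 and 176 CPM in females and 187, 169 and 172 CPM in males. Prkcb, the protein kinase C form that acts upstream of BCL10 and MALT1 in B cells (chromosome 7: 122288751 to 122634402), had 168, 180 and 97.3 CPM in females and 133, 216 and 169 CPM in males, the widest spread between males of the 3.

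In the last step, which holds phosphatases and a ubiquitin ligase, Ptprc was abundant and even, and Ptpn6 was the most variable of all 35 genes. Ptprc (chromosome 1: 138062861 to 138175708) had 1325, 1323 and 1410 CPM in females and 1327, 1245 and 1458 CPM in males. Ptpn6 (chromosome 6: 124720707 to 124738714) is the gene of SHP-1, which acts downstream of inhibitory receptors. Ptpn6 had 38.5, 12.6 and 3.03 CPM in females and 21.8, 13.3 and 19.4 CPM in males. Its log2 fold change was 0.01 ± 0.68, and it was -1.08 without female replicate 1 and 0.47 without female replicate 3. Inpp5d, the gene of the lipid phosphatase SHIP-1 (chromosome 1: 87620312 to 87720507), had 46.4, 26.2 and 14.3 CPM in females and 32.5, 32.5 and 33.5 CPM in males. The females lay on both sides of 3 nearly equal male values.

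Ptpn22, a phosphatase gene with an autoimmunity-associated variant in humans (chromosome 3: 103859795 to 103912247), had 50.7, 77.7 and 50.9 CPM in females and 52.5, 40.8 and 42.8 CPM in males. Female replicate 2 alone lay above all males, and the log2 fold change was 0.54 ± 0.22 (edgeR adjusted p = 0.999). Without that library it was 0.36. Cblb, a ubiquitin ligase that dampens signalling (chromosome 16: 52031225 to 52208048), had 201, 144 and 168 CPM in females and 219, 222 and 222 CPM in males. Every female was below every male, also with TMM scaling, but not with RLE scaling. The log2 fold change was -0.23 ± 0.16 (adjusted p = 0.999, edgeR), and it was -0.090 without female replicate 2 and -0.35 without female replicate 3.

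**Figure D2:**
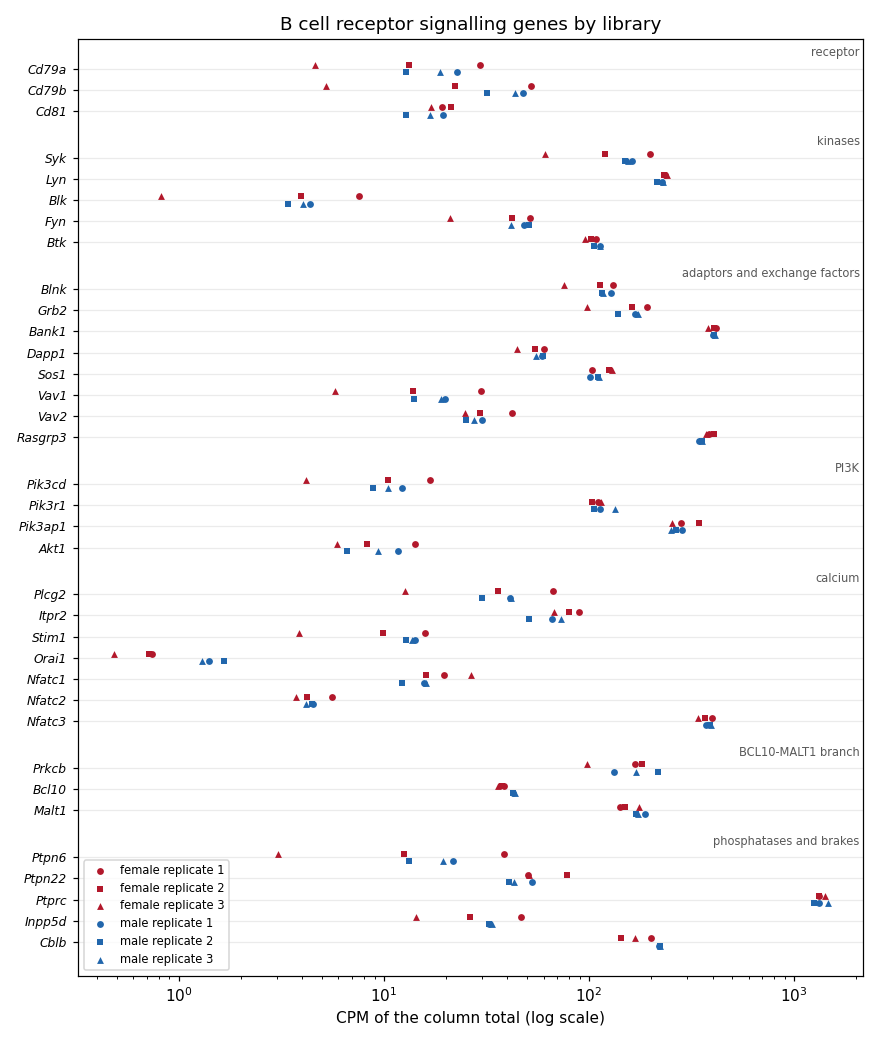
CPM of the column total (log axis) of each of the 35 genes in each library, females in red above males in blue, with a marker shape per replicate. Female replicate 3 (red triangles) lies far to the left for Cd79a, Cd79b, Blk, Vav1, Plcg2, Stim1 and Ptpn6, while Bank1, Lyn and Ptprc form tight groups.

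The spread between libraries ran along the GC content of the transcripts. Female replicate 3 was the lowest library for 23 of the 35 genes (65.7%), against 51.4% of all tested genes, and female replicate 1 was the highest for 20 (57.1%), against 29.2%. In 12 of the 35 genes female replicate 3 was at less than 0.5 times the mean of the other 5 libraries, against 28.9% of all tested genes (34.3% of the 35). They were, from the smallest ratio, Cd79b (0.132), Ptpn6 (0.144), Blk (0.176), Cd79a (0.237), Stim1, Plcg2, Vav1, Pik3cd, Syk, Orai1, Inpp5d and Fyn (0.450). Of the 12 members with the most GC-rich transcripts (54.0 to 59.7%), the median ratio was 0.328. In the 12 most GC-poor (41.0 to 46.8%) it was 0.985, with a range of 0.769 to 1.17. All tested genes in the same GC ranges had medians of 0.375 and 0.935.

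Each library's deviation from the 6-library mean was also correlated with GC content across the genes, as a description. In the 35 genes Spearman's rho was -0.707 in female replicate 3, 0.690 in female replicate 1 and -0.285 in female replicate 2. It was 0.659, -0.116 and 0.385 in male replicates 1 to 3. Over the 11610 tested genes with a transcript match it was -0.591, 0.506 and -0.0283 in the females and 0.450, -0.00836 and 0.244 in the males. Nfatc1 did not follow this pattern: its transcript has 53.7% GC, and female replicate 3 had 1.66 times the mean of the others. The coefficient of variation over the 6 libraries had a median of 42.0% in the 12 GC-rich genes, 21.2% in the middle 11 and 7.91% in the 12 GC-poor ones. Without female replicate 3 these medians were 30.3%, 16.6% and 6.24%. The part of GC content in these differences was not tested.

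**Figure D3:**
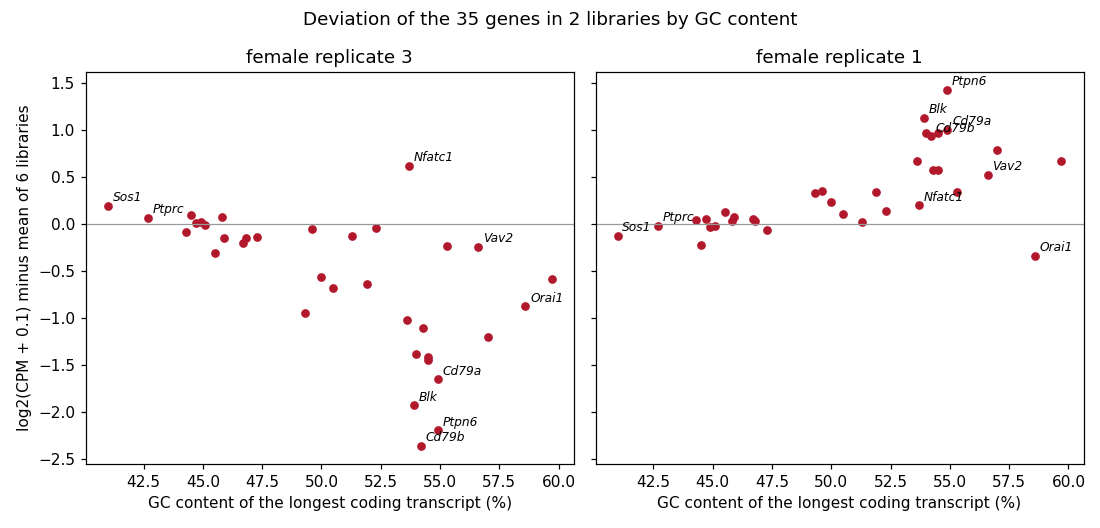
Deviation of each of the 35 genes from its mean over 6 libraries, in log2(CPM + 0.1), against the GC content of its longest coding transcript in percent, for female replicate 3 (left) and female replicate 1 (right). GC-rich genes such as Cd79b and Ptpn6 lie low on the left (rho = -0.707) and high on the right (rho = 0.690), and Nfatc1 lies high on the left.

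The comparison of the sexes, the one contrast the labels define, called none of the 35 genes. In edgeR's quasi-likelihood test, 0 of 35 passed a false discovery rate of 0.05 over 12172 tested genes, of which 0.0575% were called, and the smallest adjusted p was 0.999. Before adjustment, 3 of 35 had an edgeR p under 0.05 (Orai1, Ptpn22 and Itpr2), against 2.89% of all tested genes. DESeq2 also called 0 of 35, against 0.288% of all tested genes, with 4 under 0.05 before adjustment, against 3.85%. With limma-voom 0 of 35 were called, against 0.0739%, and 3 were under 0.05 before adjustment, against 3.25%. Of the log2 fold changes 22 were positive and 13 negative, with a median of 0.05, beside 50.1% positive and a median of 0.00095 over all tested genes. With library totals only, without TMM factors, the median of all genes moved to -0.12 and that of the 35 to -0.07, and 14 were positive.

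The sexes did not overlap for 5 of the 35 genes on the column-total scale, against 10.2% of all tested genes. On the column-total scale the females were all above the males for 2 of 35 genes, Lyn and Rasgrp3, against 2.69% of tested genes. They were all below for 3, Bcl10, Cblb and Orai1, against 7.55%. With TMM scaling 6 genes did not overlap, against 9.01% of tested genes: Itpr2, Nfatc1, Rasgrp3 and Vav2 with females above, and Cblb and Orai1 with females below. The standard error of the log2 fold change was 0.13 to 0.22 in the 12 GC-poor genes and 0.19 to 0.68 in the 12 GC-rich ones, so that a given difference was less detectable for Cd79a, Cd79b or Ptpn6 than for Bank1 or Ptprc. A limma-voom fit with a weight per library called 1 of 35, Ptpn22 (log2 fold change 0.77, adjusted p = 0.0451), where it called 1.88% of all tested genes. Over the other alternatives the adjusted p of Ptpn22 was 0.405 to 1. The p values measure the spread between these 6 mice only.

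**Figure D4:**
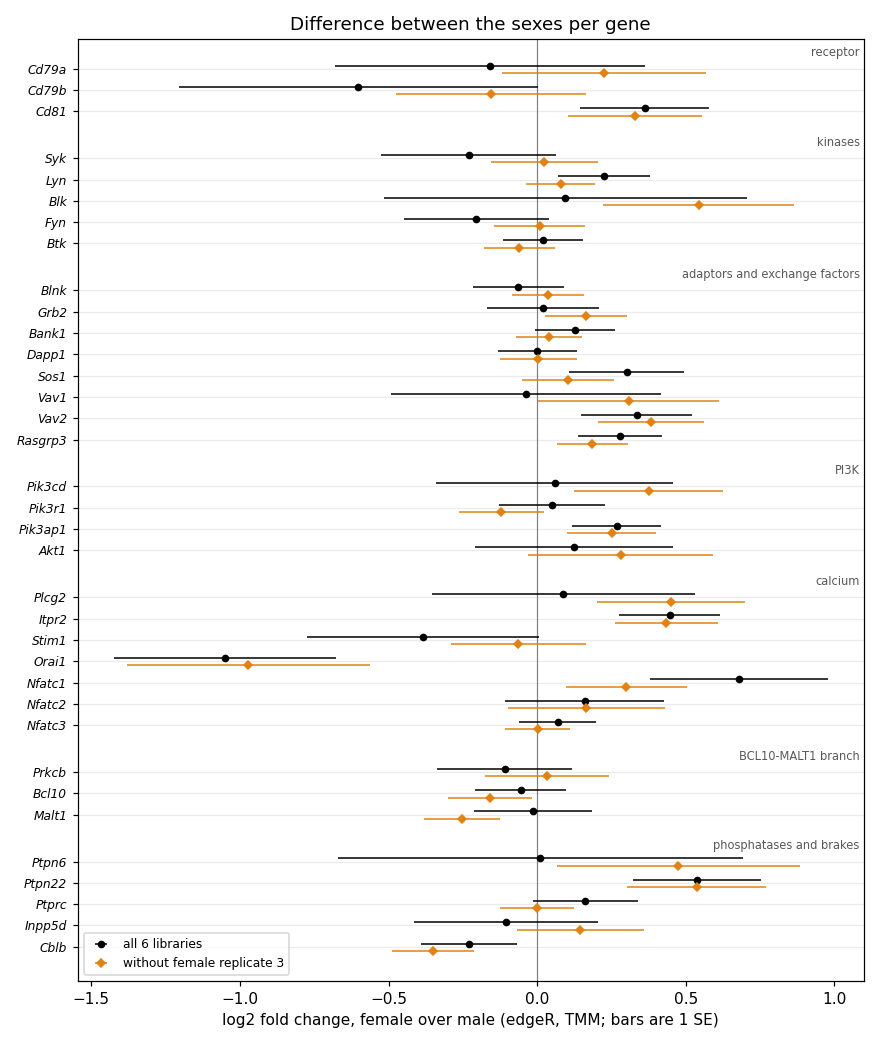
Log2 fold change, female over male, of the 35 genes from edgeR with TMM factors, with all 6 libraries (black) and without female replicate 3 (orange); bars are 1 standard error. Orai1 lies lowest in both (-1.05 and -0.97), and the black bars are longest for Ptpn6, Blk and Cd79b.

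Other genes of the pathway gave the same count of calls. A list of 78 further genes had 73 tested members. It holds the coreceptor genes Cr2 and Cd22 and the RAS, PI3K, calcium and NF-kB branches, among others. Of the 73, 0 were called, against 0.0575% of all tested genes. Among the 73, 37 log2 fold changes were positive and 36 negative, with a median of 0.0026. Before adjustment 2 of the 73 had an edgeR p under 0.05, against 2.89% of all tested genes. Rasgrp2, a RAP exchange factor, had 7.52, 3.48 and 2.34 CPM in females and 11.5, 9.26 and 11.7 CPM in males. Every female was below every male, and the log2 fold change was -1.21 ± 0.38 (adjusted p = 0.999, edgeR). Cr2, a complement receptor of the B cell coreceptor, had 209, 200.4 and 179 CPM in females and 170, 177 and 162 CPM in males, with a log2 fold change of 0.35 ± 0.13. Of these 73 genes, 46 (63.0%) also had their lowest value in female replicate 3, against 51.4% of all tested genes.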

How the data were processed

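RNA-seq values of 6 libraries were read from 1 deposited table of estimated counts per gene symbol. The submitters' processing notes name kallisto, DESeq2 and GRCm38.p6. Versions and settings of that step were not stated. The authors' values were not scaled to a common depth. They were rounded for count tests and divided by the column total for CPM. A count of 3 equals 0.0841 to 0.125 CPM, which is the limit that a count of 0 allows, for counting error only.

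Females were compared with males in edgeR 4.0.16 (R 4.3.3): filterByExpr, TMM factors, glmQLFit and glmQLFTest on sex alone, adjusted by Benjamini-Hochberg over 12172 genes at an FDR of 0.05. The standard error is the size of the log2 fold change divided by the square root of F. Alternatives were DESeq2 1.42.0, limma-voom (limma 3.58.1) with and without library weights, RLE and upper-quartile factors, library totals, other filters, the replicate number as a block and each library left out. On simulated counts the fit recovered 13 of 67 genes changed 2-fold, 40 of 67 changed 4-fold and 63 of 66 changed 16-fold. It can thus miss most 2-fold differences, and a lack of calls does not show equal levels. Transcript length and GC content are of the longest coding transcript per symbol in GENCODE M21 (95.4% of tested genes matched), and a pseudocount of 0.1 CPM was used for deviations.

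All 35 genes are accounted for. Values in every library were due for genes called or with p under 0.05, without overlap, or highest or lowest per kilobase in their step. The other genes given by library, the ratio of Cd79b to Cd79a, the groups by GC content, the promoter motif, the TMM-scaled overlap and the median transcript length were chosen after values were seen. The genes and lists were chosen with earlier results of these data known. For 8 of the 35 genes (Bank1, Cd81, Fyn, Lyn, Nfatc3, Orai1, Ptpn6 and Sos1) another gene lies over their exons on the opposite strand, and no source says whether reads were assigned by strand. Where the table lists that gene, it was at no more than 3.82 CPM.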

Additional observations from a re-analysis of the deposited data

How the results depend on the processing

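No alternative but limma-voom with library weights called any of the 35 genes or of the 73 other pathway genes, and that one called 1 of each (Ptpn22 and Rasgrp2). Over all genes 7 were called; the count was 11 without a low-count filter, 35 with DESeq2, 229 with library weights, and 4 to 12 when 1 library was left out. The number of the 35 genes without overlap, 5 with all libraries, was 8 with upper-quartile factors, against 9.09% of all tested genes. It was 6 to 16 when 1 library was left out. The 16 were without female replicate 1, against 37.3% of all tested genes, and for the other 5 libraries the share of all tested genes was 15.7 to 18.5%.

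Small differences changed sign with the setting; none of them was called. With library totals only, the log2 fold changes were -0.12 for Btk, -0.083 for Grb2, -0.015 for Bank1, -0.13 for Dapp1, -0.0095 for Pik3cd, -0.10 for Pik3r1, -0.068 for Nfatc3 and -0.014 for Ptpn6. With upper-quartile factors they were -0.0019 for Btk and -0.018 for Dapp1. Dapp1 was at -0.0012 without a filter and -0.0058 with a filter of 1 CPM in 3 libraries, and Malt1 at 0.0083 with RLE factors and 0.0084 with DESeq2. With limma-voom they were -0.32 for Blk, -0.093 for Pik3cd, -0.13 for Plcg2 and -0.55 for Ptpn6. With library weights they were -0.063 for Btk, -0.17 for Pik3r1, -0.11 for Akt1, -0.060 for Plcg2, 0.21 for Prkcb and -0.50 for Ptpn6.

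Leaving out 1 library gave ranges across 0 for 19 genes, usually from the fit without female replicate 1 to that without female replicate 3. They were -0.87 to 0.23 for Cd79a, -0.61 to 0.025 for Syk, -0.59 to 0.54 for Blk, -0.39 to 0.0086 for Fyn, -0.060 to 0.059 for Btk, -0.15 to 0.037 for Blnk, -0.10 to 0.16 for Grb2, -0.028 to 0.023 for Dapp1, -0.67 to 0.31 for Vav1 and -0.36 to 0.37 for Pik3cd. They were -0.12 to 0.15 for Pik3r1, -0.18 to 0.33 for Akt1, -0.47 to 0.45 for Plcg2, -0.27 to 0.083 for Prkcb, -0.16 to 0.0054 for Bcl10, -0.25 to 0.12 for Malt1, -1.08 to 0.47 for Ptpn6, -0.0018 to 0.26 for Ptprc and -0.51 to 0.14 for Inpp5d. Some ranges on 1 side of 0 had ends that differed by over 1.5 times. They included -1.44 to -0.15 for Cd79b, 0.22 to 0.50 for Cd81, 0.079 to 0.31 for Lyn and 0.040 to 0.18 for Bank1. Others were 0.10 to 0.46 for Sos1, 0.19 to 0.41 for Vav2, 0.19 to 0.36 for Rasgrp3 and 0.18 to 0.36 for Pik3ap1. In the calcium step there were -0.81 to -0.063 for Stim1, 0.30 to 0.88 for Nfatc1, 0.069 to 0.23 for Nfatc2 and 0.0017 to 0.11 for Nfatc3. In the last step there were 0.36 to 0.70 for Ptpn22 and -0.35 to -0.090 for Cblb. The causes were not tested.

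Same-numbered females and males had deviations from their group means that correlated at 0.222, 0.0423 and 0.0695, not all above 0.1. Female replicate 3 correlated best with male replicate 2 (0.120). The labels do not say whether same-numbered mice share a litter, batch or day, and these correlations cannot decide it. With the replicate block 7 genes were called over all genes and 0 of the 35, and the log2 fold changes were -0.23 for Blk, -0.061 for Pik3cd, -0.090 for Plcg2 and -0.44 for Ptpn6. Depth limits Orai1 and Blk most, which had 17.1 and 29.2 estimated counts in their lowest library.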
